A study of Mus musculus with 32 samples.

Results

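Replicates 1 to 4 of the series are 8 of its 32 RNA libraries, 4 from EL08-1D2 cells without azacitidine and 4 from EL08-1D2 cells with it, and they were selected on measured values, the fold changes with the drug in each run of 4 consecutive replicate numbers, as seen in earlier work on the same counts. The other 24 libraries are the same cell line under the same pair of labels, 12 without and 12 with the drug. EL08-1D2 is a mouse mesenchymal stromal line from embryonic liver, used as a feeder for blood-forming cells, so the libraries describe 1 line and no tissue. Genotype does not differ between groups, and the dose and duration of treatment are not given in the sources used here. The labels number the replicates from 1 to 16 and name no batch. Consecutive runs of 4 (1 to 4, 5 to 8, 9 to 12 and 13 to 16) were seen in the counts, and what separates them in the laboratory is not given in the sources used here. Separate cultures are not stated in the labels, so p-values reflect the scatter among the libraries, part or all of which may be technical.

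Azacitidine is a cytidine analogue that is built into nucleic acids and, in DNA, traps DNA methyltransferases, so that dividing cells lose methylation and genes held silent by methylated promoters can be transcribed. Loss of methylation is also known to let endogenous retroviral repeats be transcribed, and their double-stranded RNA can trigger interferon production. Interferon then acts through its receptor on genes whose promoters hold the interferon-stimulated response element, a pair of GAAA repeats 2 bases apart.

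That element was looked for in the promoters of genes whose log2 change with the drug was called higher or lower in replicates 1 to 4 than elsewhere. A higher effect can be a larger rise or a weaker fall, and a lower one a weaker rise or a steeper fall. Windows from 3 leading interferon genes, a guanylate-binding protein and a chemokine are shown here. They were picked from promoters that held a match, so they do not show how common it is. The sequences are RefSeq's, build GRCm38.p6 (mm10), 5′ to 3′ on the strand of the gene, 70 bases each from the 250 bases before the start, and the capitals mark each match to GAAA, any 2 bases and GAAA on either strand, which reads TTTC, any 2 bases and TTTC where the match lies on the other strand, and overlapping matches run together.
Isg15: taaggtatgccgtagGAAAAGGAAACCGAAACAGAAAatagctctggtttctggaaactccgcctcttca
Ifit1: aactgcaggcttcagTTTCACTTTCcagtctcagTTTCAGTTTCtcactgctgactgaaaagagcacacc
Ifit3: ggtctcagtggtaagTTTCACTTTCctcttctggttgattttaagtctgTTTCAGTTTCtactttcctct
Gbp2: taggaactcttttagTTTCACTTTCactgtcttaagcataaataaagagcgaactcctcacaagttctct
Cxcl10: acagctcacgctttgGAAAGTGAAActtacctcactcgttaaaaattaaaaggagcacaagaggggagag
The windows lie at chr4:156200842-156200911 (minus strand), chr19:34640770-34640839 (plus strand), chr19:34583358-34583427 (plus strand), chr3:142620589-142620658 (plus strand) and chr5:92349048-92349117 (minus strand). Of 99 genes with a higher effect in replicates 1 to 4 and a promoter in RefSeq, 23 (23.2%) held the motif in those 250 bases, and 1 of 56 genes with a lower effect (1.79%) did. The share was 257 of 7886 (3.26%) among tested genes and 936 of 27025 (3.46%) among all genes with a promoter. A gene with several promoters was counted if any 1 of them held a match. Among all genes that rose in replicates 1 to 4 it was 36 of 163 (22.1%), close to the share of those with a higher effect. In the interferon list fixed for this work, 11 of 35 tested genes with a promoter (31.4%) held it, so most did not. Outside that list, 15 of 81 genes with a higher effect (18.5%) held it. A match is a run of letters and not a measured binding site.

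The deposited values are UMI counts, which count each captured cDNA molecule once. They are given below as CPM, counts brought to a common total of mouse UMIs per library, after scaling by edgeR's TMM factors. Totals were 818619 to 3210801 UMIs in the 4 untreated libraries and 2058202 to 5039721 in the 4 treated ones. Untreated replicate 4, with 818619 UMIs, is the shallowest library of the series, and treated replicate 1 the deepest. After every library was thinned to 818619 UMIs, the untreated libraries showed 13445.5 ± 34.5 genes (SD, n = 4) and the treated ones 13743 ± 56.1 (exact permutation test, two-sided, p = 0.0286, the smallest that 4 against 4 allows, adjusted p = 0.171 over 6 measures). The remaining 5 measures, among them the share of spike-in RNA (0.1395% without and 0.0943% with the drug), did not pass either.

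Within these 8 libraries, 5 stood apart from all others of the series: untreated replicates 1 and 2 and treated replicates 1, 2 and 4. Their deviations from the group means correlated at 0.717 to 0.918 with each other and at -0.56 to 0.37 (median -0.299) with the other 27 libraries, over 7968 genes with a mean above 10 CPM. They are the deepest libraries of the run, and the split crosses the treatment groups. Gnai2, a G protein alpha subunit chosen after its values were seen, stood at 1303.7, 590.7, 112.2 and 68.9 CPM in untreated replicates 1 to 4 and at 1189.8, 1347.8, 167.8 and 1453.5 CPM in treated ones. The 5 libraries were thus high for Gnai2 in both groups, and the 27 others lay between 47.2 and 167.8 CPM. Counts for the effect in this run and for the interaction were also computed without the 5 libraries, and some are given below. That leaves 2 untreated libraries and 1 treated library in the run, the lone library being taken to vary like the others of the fit. Within 1 treatment group only the counts over all genes were recomputed, and the list counts there were not.

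**Figure D1:**
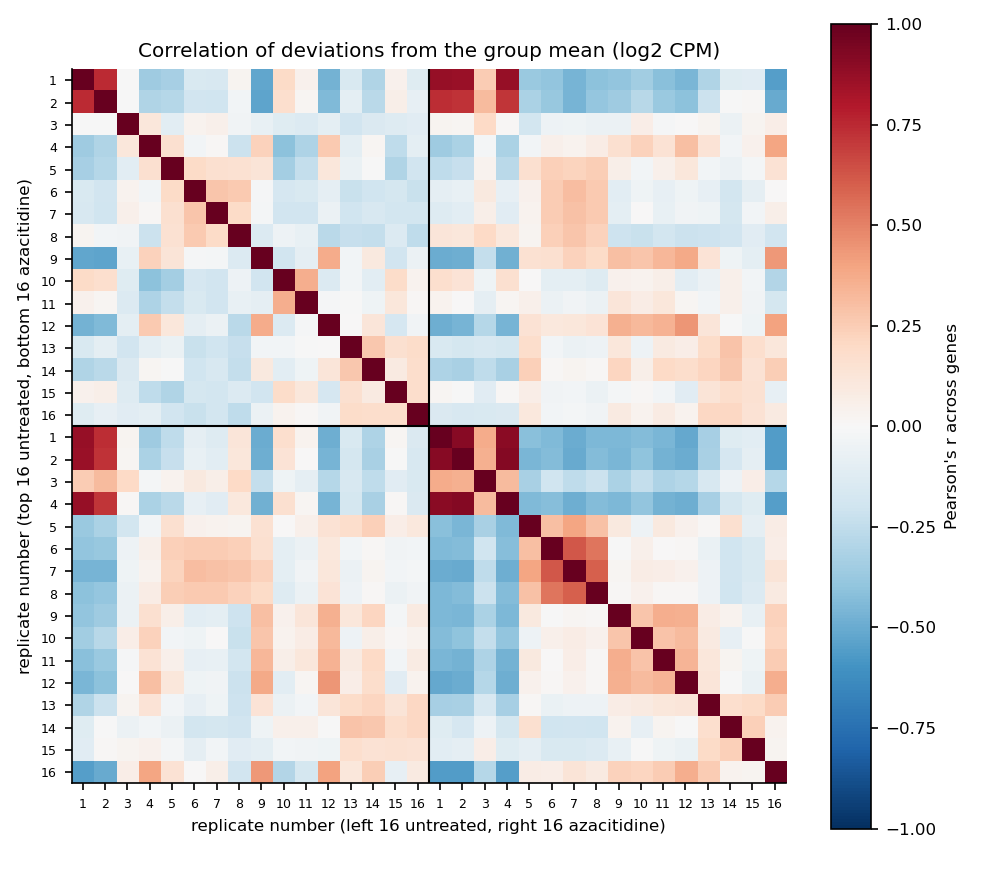
Pearson correlation, across 7968 genes with a mean above 10 CPM, of each library's deviation from its group mean in log2(CPM + 1); rows and columns are the 32 libraries by replicate number. Untreated 1 and 2 and treated 1, 2 and 4 form the red block with correlations of 0.717 to 0.918, while untreated 3 and 4 and treated 3 lie outside it.

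Fold changes are given from here on as log2 values with azacitidine over without, followed by ± their standard error, and a gene is called where edgeR's adjusted p is under 0.05. Across genes, azacitidine raised more transcripts than it lowered in replicates 1 to 4. Of 10652 genes tested, 267 (2.51%) passed an adjusted p of 0.05, 209 higher (1.96%) and 58 lower (0.544%) in the treated libraries. The treated and untreated libraries did not overlap for 1117 of the 10652 genes (10.5%). A change of at least 2-fold was seen for 143 of those that rose and 7 of those that fell. These calls come from the contrast by which the libraries were singled out and are given as a description. Without the 5 libraries 206 genes passed (2.06%), 142 of them shared, and Cdkn1a, Col3a1, Cpz, Gas6, Sfrp2 and Saa3 are genes described in the text as changed in this run that did not pass then. With a term for the 5 libraries 848 passed (7.96%), which include all 267.

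The fold changes of replicates 5 to 16 were in view when this run was selected, so they are set beside it here and are not independent support. Among them, 857 of 9162 genes (9.35%) differed with azacitidine, 490 higher (5.35%) and 367 lower (4.01%; edgeR quasi-likelihood test with run as a term, Benjamini-Hochberg adjustment). Of the 209 genes that were higher in replicates 1 to 4, 158 were tested there, 145 had the same sign and 118 passed, which is 74.7% of those tested and 24.1% of the 490. Of the 58 lower genes 57 were tested, 52 had the same sign and 23 passed, which is 40.4% of those tested and 6.27% of the 367. Over the 158 higher genes tested in both, the median log2 change was 1.16 in replicates 1 to 4, the contrast that picked them, and 0.61 in replicates 5 to 16; over all 209 it was 1.45 in replicates 1 to 4. A single gene, Mest, passed in the opposite direction.

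Whether the drug's effect itself differed was tested as an interaction over all 32 libraries, the effect in replicates 1 to 4 minus the mean of the effects in the 3 other runs. It passed for 206 of 10440 genes (1.97%), 128 with a higher effect (1.23%) and 78 with a lower one (0.747%). Leaving out 1 library of the run moved that count between 104, without untreated replicate 3, and 1110, without untreated replicate 1; it was 107 to 130 without untreated 4 or treated 1, 2 or 4, and 686 without treated 3. The runs were seen in these data, so this test is not independent of the choice. It treats libraries as the unit, whereas with the run as the unit there is 1 run against 3 and an exact permutation test could not go below p = 0.25. The distance was greatest to replicates 5 to 8, against which alone 368 genes differed (3.52%). Against replicates 9 to 12 alone 81 differed (0.776%), and against replicates 13 to 16 alone 3 (0.0287%), namely Mest, Cdsn and Errfi1. Without the 5 libraries the interaction passed for 54 genes (0.493%), 46 of them shared, and with a term for those libraries for 244 (2.34%), 194 of them shared.

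**Figure D2:**
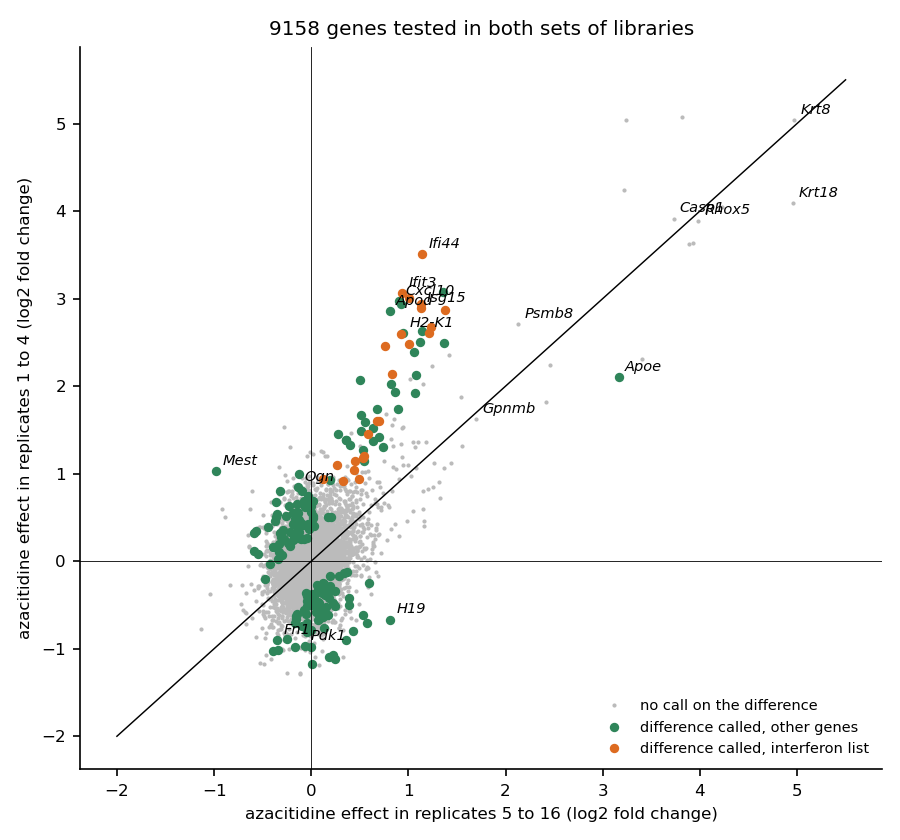
Log2 fold change with azacitidine of 9158 genes, in replicates 5 to 16 (horizontal, 24 libraries) and in replicates 1 to 4 (vertical, 8 libraries), which share no library; coloured points passed the test of the difference, and the diagonal marks equal effects. Krt8, Krt18, Rhox5 and Casp1 lie near the diagonal, the orange interferon genes above it, and Mest in the upper left.

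The steepest increases were in genes that were nearly silent without the drug, and of those described in the next 2 paragraphs none passed the test of the difference between runs. Krt8, a keratin of simple epithelia, stood at 2.00, 2.96, 1.85 and 1.17 CPM in untreated replicates 1 to 4 and at 79.003, 72.98, 65.5 and 70.6 CPM in the treated ones. Every treated library was far above every untreated one, with a log2 change of 5.04 ± 0.19 here and 4.97 ± 0.15 in replicates 5 to 16 (adjusted p = 1.96e-27). Its partner Krt18 had a log2 change of 4.09 ± 0.22 here and 4.96 ± 0.20 there. Rhox5, a homeobox gene on the X chromosome, expressed in the testis and known to be silenced by methylation elsewhere, held 7.32, 8.89, 6.17 and 9.34 CPM without and 120.5, 124, 108 and 113 CPM with azacitidine. The 4 treated libraries lay close together and did not overlap the untreated ones, and the log2 change was 3.89 ± 0.14 against 3.98 ± 0.11 in replicates 5 to 16 (adjusted p = 7.09e-27). The same held for Gtsf1, which acts with Piwi proteins in germ cells (4.05 ± 0.45 and 4.23 ± 0.30).

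The germline list names 30 genes, of which 28 were in the counts and 6 passed the expression filter in replicates 1 to 4. Of these 6, 5 rose, with a list median of 3.97 on the log2 scale against -0.005 over all genes. None of 7 passed the interaction. A gene nearly silent without the drug passes the filter mainly through its treated libraries. The share that rose and the median are thus partly set by the filter, and the members too low to test are not described. Casp1, the inflammasome protease, stood at 0.333, 1.69, 2.47 and 0 CPM without and 19.3, 17.5, 17.5 and 17.5 CPM with the drug, and Ndufa4l2, a mitochondrial protein induced in hypoxia, at 1.66, 1.69, 0.617 and 1.17 CPM and 17.003, 18.4, 18.9 and 17.3 CPM. Neither gene's groups overlapped. Their interaction estimates were 0.16 ± 0.49 and -0.34 ± 0.76 and did not pass (adjusted p = 0.893 and 0.852). Lumican (Lum), a small proteoglycan of the matrix, and Gpnmb, a glycoprotein of lysosomes, also rose, by 1.82 ± 0.17 and 1.62 ± 0.0974. Gpnmb was lower in this run in both groups, at 675 ± 41.9 and 2078 ± 196 CPM (SD, n = 4) against means of 1280.3 and 4474 in replicates 5 to 16.

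Apoe, which carries lipids, rose less in replicates 1 to 4 than in replicates 5 to 8. It stood at 19.3, 20.3, 14.2 and 17.5 CPM without and 77.6, 89.8, 58.2 and 84.4 CPM with azacitidine. The groups did not overlap, and the rise of 2.10 ± 0.17 gave an interaction of -0.99 ± 0.20 (adjusted p = 0.00256), not called without the 5 libraries. The rise fell short of that in replicates 5 to 8 by a called difference of -2.21, while the differences from replicates 9 to 12 (-0.63) and 13 to 16 (-0.13) were not called. The difference lay in the untreated cells, which were higher by 0.99 ± 0.18 in this run (adjusted p = 0.000206), while the treated cells differed by 0.00 ± 0.0966 (adjusted p = 0.976).

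Interferon-stimulated genes were the gene list with the most calls for a stronger response in replicates 1 to 4. Of 48 tested, 36 rose with the drug in these libraries and none fell, and 26 of 46 passed the interaction with a larger rise here, none with a smaller one. The median log2 change over the 46 was 1.602 in replicates 1 to 4, 0.28 in replicates 5 to 8, 0.63 in replicates 9 to 12 and 1.29 in replicates 13 to 16, where the medians over all genes lay between -0.0098 and 0.0028. Members can pass the expression filter through the libraries of this run alone, where they are high. Over the 36 members also tested in replicates 5 to 16 the medians were 1.33, 0.26, 0.47 and 1.20, so the lead over replicates 13 to 16 was smaller. For 39 of the 46, and for 31 of those 36, the rise was larger than in each of the other runs, which held for 29.0% of all genes. Against replicates 13 to 16 alone none of the 46 passed, with a median difference of 0.41. Under scaling by the spike-in RNA 7 of the 46 passed, with a median of 1.16 where that of all genes was 0.29. The list was chosen with results of these libraries known and is no independent evidence of its direction.

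Ifit1, which binds viral RNA without a methylated cap, stood at 23.9, 30.5, 39.5 and 38.5 CPM in untreated replicates 1 to 4 and at 207, 253, 269 and 212 CPM in the treated ones. All 4 treated libraries were above all others of the series: replicates 5 to 16 spanned 24.1 to 86.3 CPM without the drug and 67.8 to 155 CPM with it. The log2 change of 2.87 ± 0.16 was larger than in the other runs by 1.45 ± 0.20 (edgeR, adjusted p = 1.12e-05). Isg15, the ubiquitin-like modifier, held 5.65, 8.89, 4.93 and 4.67 CPM without and 42.9, 56.7, 43.2 and 45.2 CPM with azacitidine, against 9.36 to 32.8 CPM in the treated libraries of replicates 5 to 16. Those ranges do not overlap, and the difference of the effect was 1.67 ± 0.25 (adjusted p = 2.52e-05). Both genes were chosen after their values were seen.

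Ifit3, a partner of Ifit1, had an interaction of 2.01 ± 0.22 (adjusted p = 3.89e-07), beside Rsad2 (2.26 ± 0.50) and Ifi44 (2.08 ± 0.38). Rsad2 encodes the antiviral enzyme viperin, and its untreated libraries held at most 2.12 CPM, so its estimate is less precise. Ifit3 stood at 21.6, 33.9, 33.9 and 33.9 CPM without and 218, 299.8, 263 and 229 CPM with the drug. Irf7, the factor that amplifies interferon production, held 15.3, 17.8, 14.8 and 15.2 CPM and 85.6, 109.8, 100.4 and 89.9 CPM. In both genes the treated libraries lay far above the untreated ones with no overlap. The interaction for Irf7 was 1.66 ± 0.19 (adjusted p = 2.97e-07).

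Other called members include Oasl2, Oas1a and Oas1g of the oligoadenylate synthetase family (1.69 ± 0.18, 1.94 ± 0.43 and 1.81 ± 0.27), and Usp18, which strips ISG15 and damps receptor signalling (1.41 ± 0.20). Oas1a and Oas1g are near-identical neighbours whose reads the counting could have split. Rtp4, a chaperone of membrane receptors, had an interaction of 1.34 ± 0.14 and Sp100, a nuclear body protein, one of 1.77 ± 0.32. Among genes that sense RNA or start the response, Ddx58, which encodes the sensor RIG-I, rose from 35.9 ± 6.62 to 77.2 ± 9.11 CPM (SD, n = 4) with an interaction of 0.70 ± 0.17 that was lost without untreated 2 or 3 or treated 2 or 4 (0.63 to 0.68). Of 15 sensing genes 3 rose and 3 passed the interaction, 1 of 15 without the 5 libraries. Ifnar2, a chain of the receptor for type I interferon, passed at 0.68 ± 0.18, but its treated libraries stood at 161, 172, 115 and 168 CPM, lowest in replicate 3, which is the treated library outside the group of 5, and its call was lost without any 1 of the libraries but untreated 1 and treated 3 (0.57 to 0.67).

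Set against the mean of the other runs, the difference came mostly from the treated cells. Against replicates 5 to 8 the untreated cells also differed for some genes. Isg15 stood at 17.86, 18.52, 12.76 and 14.89 CPM in untreated replicates 5 to 8, and Ifit1 at 86.35, 76.64, 56.16 and 64.27 CPM. Both were above every untreated library of this run, whereas untreated Cxcl10 and H2-K1 overlapped between the runs. Within a group, the list was not compared with single runs. Between treated libraries, 35 of 46 interferon-stimulated genes were higher in replicates 1 to 4 than in replicates 5 to 16 and none lower, with a median difference of 0.79. That comparison passed for 47.6% of all genes, 24.8% higher, and for 2.53% without treated replicates 1, 2 and 4. Between untreated libraries 1 of 46 was higher and 4 were lower (Zbp1, Usp18, Rtp4 and Stat2), with a median of -0.23, where 10.9% of all genes passed. Without untreated replicates 1 and 2 that comparison passed for 0.696% of all genes. The mean of log2(CPM + 1) was taken over the 48 members tested in replicates 1 to 4. Some of these were too low to test in replicates 5 to 16. On that mean, the 4 untreated libraries lay between 3.81 and 3.97 and the 4 treated ones between 5.51 and 5.79. Treated libraries of replicates 5 to 16 reached 5.23 at most, below the lowest of the 4, while the untreated ones spanned 3.67 to 4.59 and enclosed those of this run.

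Leaving out the 5 libraries lowered the number of calls on the interferon list at a like median. The interaction then passed for 13 of 46 genes, with a median of 0.89 against 0.88 with all libraries. Ifit1, Isg15, Ifit3, Irf7, Oasl2 and Rtp4 were among those that still passed, and Ifi44, Sp100, Rsad2, Oas1a, Usp18 and Ddx58 did not. With a term for the 5 libraries 26 of 46 passed.

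**Figure D3:**
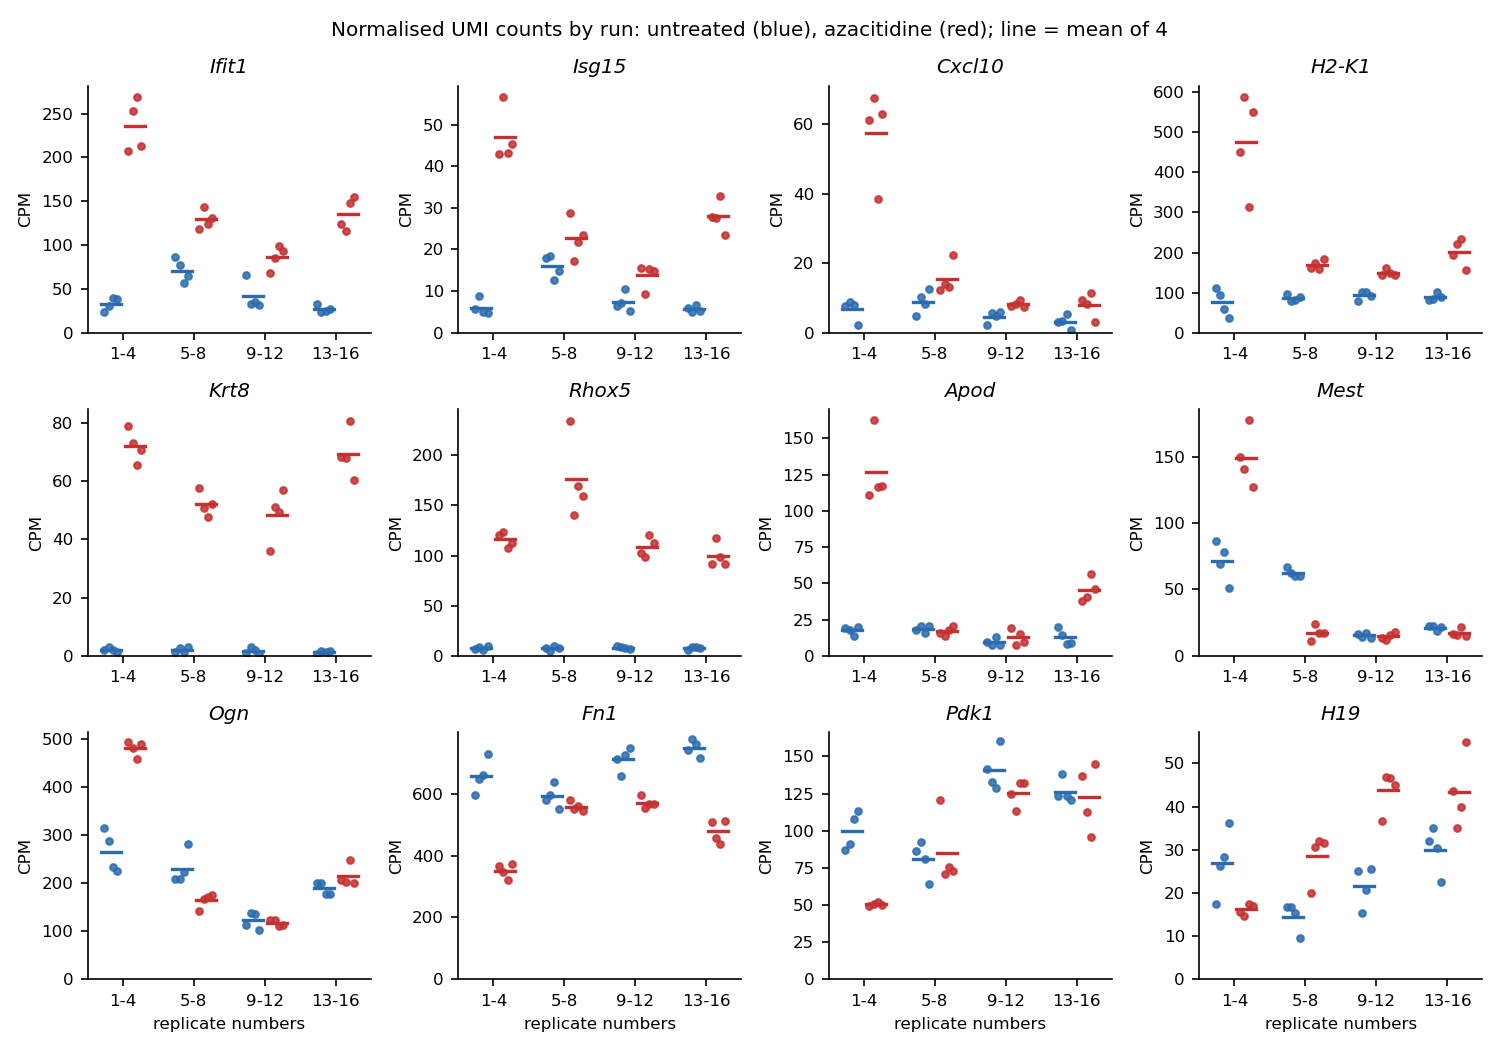
CPM of 12 genes in all 32 libraries, by run of replicate numbers; points are single libraries (blue untreated, red azacitidine), short lines the mean of 4. In replicates 1 to 4 the treated points of Ifit1, Isg15, Cxcl10, H2-K1, Apod, Mest and Ogn lie above every treated point of the other runs, and those of Fn1, Pdk1 and H19 below.

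Genes of peptide presentation by class I followed the interferon genes. Of 18 tested, 8 rose and none fell in replicates 1 to 4, and 7 of 18 passed the interaction, all with a larger rise. The median changes by run were 0.60, 0.22, 0.19 and 0.46. Against replicates 13 to 16 alone none of 18 passed, with a median difference of 0.44. Under scaling by the spike-in RNA 1 of 18 passed. H2-K1, a classical class I heavy chain, stood at 112, 93.6, 59.2 and 37.4 CPM without and 450.2, 588, 313 and 551 CPM with azacitidine. The untreated and treated libraries did not overlap, and in each group the libraries that stood apart were the higher ones. The effect exceeded that of the other runs by 1.62 ± 0.23 (adjusted p = 4.71e-05), and by 1.68 without the 5 libraries, where it still passed. B2m, the light chain shared by all class I molecules, rose from 2135 ± 260.0 to 5167 ± 237 CPM (SD, n = 4), with an interaction of 0.74 ± 0.12 (adjusted p = 7.86e-05).

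H2-D1 (0.84 ± 0.11) and Tap1, a chain of the peptide transporter (1.04 ± 0.20), also passed, Tap1 not without the 5 libraries. Psmb10, an inducible proteasome subunit, rose by 0.63 ± 0.10 here and had a change of 0.00 ± 0.0583 in replicates 5 to 16, where it did not pass (adjusted p = 0.996). Psmb8, another inducible subunit, rose by 2.71 ± 0.21 here and by 2.13 ± 0.15 there, and its interaction did not pass (0.56 ± 0.30, adjusted p = 0.334).

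GTPases induced by interferon gamma, which attack the vacuoles of intracellular microbes, rose in 9 of 11 cases, and 4 of 10 passed the interaction, 2 of 11 without the 5 libraries. The median changes by run were 1.81, 0.39, 0.56 and 1.56, and against replicates 13 to 16 alone none of 10 passed, with a median difference of 0.06. Gbp2 held 26.9, 18.6, 15.4 and 23.3 CPM without and 73.6, 107, 71.8 and 104 CPM with the drug. The groups did not overlap, and treated libraries of replicates 5 to 16 reached 40.4 CPM at most, below the lowest of these. The interaction was 1.53 ± 0.19 (adjusted p = 7.01e-07). Irgm1 and Tgtp2 also passed, at 1.03 ± 0.15 and 1.68 ± 0.31, Tgtp2 not without the 5 libraries. Gbp3 rose by 2.03 ± 0.18 and did not pass the interaction, its rise in replicates 13 to 16 being 2.98.

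Among 24 chemokine and inflammatory genes 3 passed the interaction, all with a higher effect, with a list median of 0.18, and 2 of 24 without the 5 libraries. Cxcl10, which draws activated T cells, stood at 7.65, 8.89, 8.02 and 2.33 CPM without and 61.2, 67.6, 38.3 and 62.99 CPM with azacitidine. The lowest treated library exceeded the highest of replicates 5 to 16, 22.2 CPM, and the interaction was 2.01 ± 0.34 (adjusted p = 0.000203), a call that was lost without the 5 libraries (1.70). Ccl5, which recruits T cells and monocytes, rose from 34.8 ± 6.63 to 202 ± 22.7 CPM (SD, n = 4), more than elsewhere by 1.10 ± 0.16 (adjusted p = 1.68e-05). Saa3, an acute-phase protein, rose here by 1.36 ± 0.17 and in replicates 5 to 16 by 1.10 ± 0.15, with no call on the difference (adjusted p = 0.569). Il1rn, the antagonist of the interleukin 1 receptor, passed at 0.57 ± 0.11 although its groups overlapped here: its effect in replicates 5 to 8 was -1.38.

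**Figure D4:**
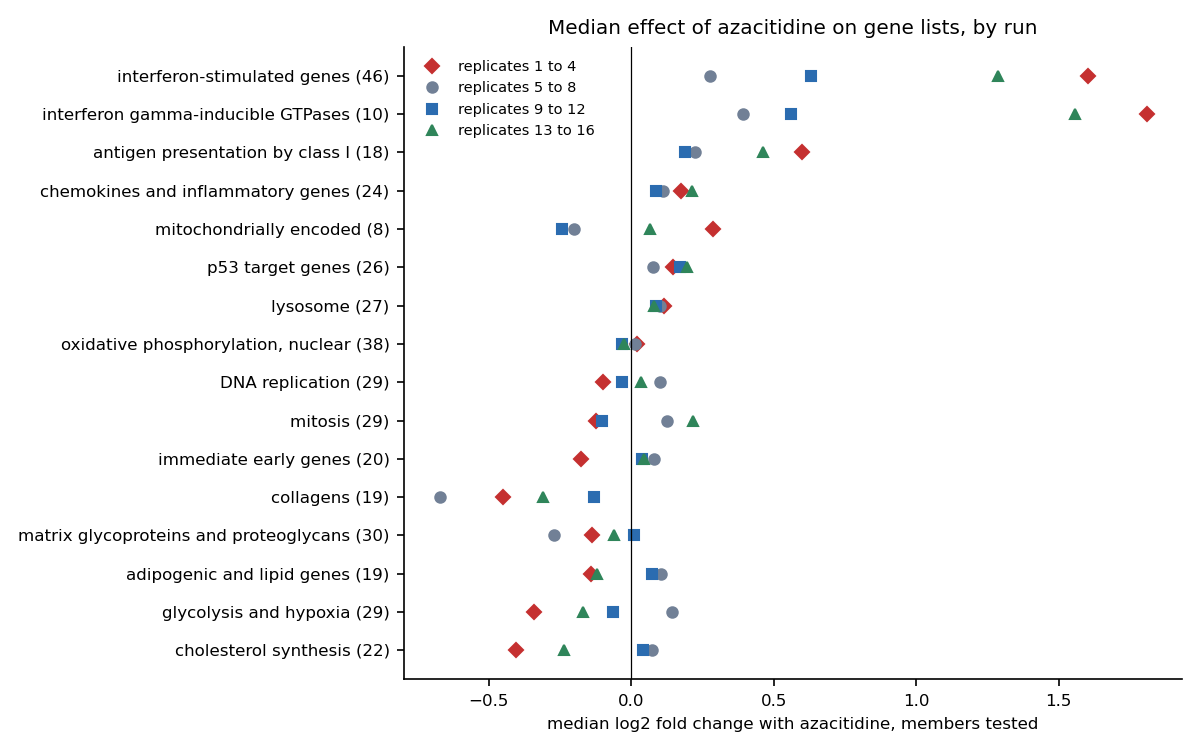
Median log2 fold change with azacitidine over the tested members of 16 gene lists (number tested in brackets), for each run of replicate numbers. Replicates 1 to 4 (diamonds) lie highest for the interferon, GTPase and class I lists and lowest for glycolysis and cholesterol synthesis, with replicates 13 to 16 (triangles) nearest to them in the interferon list.

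The next genes belong to different lists or to none and are given one by one. Apod, a lipid-binding lipocalin, stood at 18.96, 17.8, 13.6 and 19.8 CPM without and 111, 162, 116 and 117 CPM with the drug. The treated libraries lay above every other library of the series, since those of replicates 5 to 16 ended at 56.8 CPM. The rise of 2.86 ± 0.17 exceeded the others by 2.15 ± 0.24 (adjusted p = 1.73e-07), and by 2.16 without the 5 libraries, where it still passed. Run by run the effect was 2.85, -0.13, 0.45 and 1.80, so replicates 13 to 16 also showed a rise.

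Mest, an imprinted gene expressed from the paternal allele, moved in opposite directions. It held 86.5, 69.02, 78.3 and 51.4 CPM without and 150.1, 141, 177 and 127 CPM with azacitidine in replicates 1 to 4. Both groups were high and did not overlap, with a log2 change of 1.03 ± 0.15. In replicates 5 to 16 the treated libraries spanned 11.3 to 23.9 CPM and the change was -0.98 ± 0.20 (adjusted p = 0.00167), carried by replicates 5 to 8 at -1.84, the effects in the other runs being -0.07 and -0.28. The interaction was 1.75 ± 0.17 (adjusted p = 5.15e-09), it passed without the 5 libraries at 2.12, and it passed against each other run alone. Untreated cells were higher in this run by 1.42 ± 0.12 and treated cells by 3.17 ± 0.10. Mest lies at chr6:30723547-30748465 on the plus strand of GRCm38. The imprint itself was not measured.

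Ogn, a small proteoglycan also called osteoglycin, stood at 315, 288, 234 and 226 CPM without and 495, 482, 459 and 490.3 CPM with the drug. The groups did not overlap here, whereas the change in replicates 5 to 16 was -0.13 ± 0.0800 and did not pass (adjusted p = 0.338), and the interaction was 0.97 ± 0.12 (adjusted p = 3.76e-07). Cpz, a carboxypeptidase that binds Wnt proteins, rose from 3.58 ± 1.07 to 14.4 ± 3.53 CPM (SD, n = 4) with an interaction of 2.13 ± 0.43 (adjusted p = 0.00257), a call lost without the 5 libraries. Postn, which encodes the matrix protein periostin, did not pass in this run alone, but its effect differed from the others by 0.76 ± 0.15 (adjusted p = 0.00256), replicates 5 to 8 having -1.35. Cdsn, an adhesion protein of the skin and chosen after its values were seen, changed by 0.32 ± 0.0789 here without passing and by -0.59 ± 0.0596 in replicates 5 to 16 (adjusted p = 5.90e-10). Its interaction was 0.90 ± 0.11 (adjusted p = 7.01e-07).

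Decreases depend on the scaling more than increases. When libraries were scaled by their spike-in RNA, the median change of all genes moved by 0.52 in replicates 1 to 4 and by 0.29 in the interaction, 297 genes were called higher and none lower, and the interaction kept 15 calls, all higher. On that scaling 41 interferon-stimulated genes rose, and of the interaction calls Ifit3, Irf7, Isg15, Oasl2, Oas1g, Rsad2, H2-K1, Gbp2, Cxcl10, Apod, Cpz and Mest remained and no other gene with a call described in the text. A decrease in the next paragraphs is a decrease relative to the rest of the same library. Whether the amount of RNA per cell or the spike-in dosing moved was not tested.

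Collagens were lower with the drug in these libraries as they were elsewhere. Of 19 tested, 7 fell and none rose, with a median of -0.46 against -0.005 over all genes, and 13 of 17 fell in replicates 5 to 16. Col4a1, a chain of basement membrane collagen, stood at 272, 321, 297 and 367 CPM without and 149, 147, 163 and 155 CPM with azacitidine. The groups did not overlap, and its fall of -1.03 ± 0.10 was steeper than in the other runs (-0.63 ± 0.10, adjusted p = 7.96e-05), a call that was lost without the 5 libraries at a like size (-0.62). The fibrillar Col3a1 changed by -0.58 ± 0.0828 here and -0.68 ± 0.0527 there, with no call on the difference. Col1a2 differed the other way (0.27 ± 0.0716, adjusted p = 0.0351), having a change of -0.21 ± 0.0792 here and -0.47 ± 0.0583 in replicates 5 to 16, and was not called without the 5 libraries or without any 1 of untreated 3 and 4 and treated 1, 2 and 4 (0.25 to 0.29). Against replicates 5 to 8 alone the Col1a2 difference was 0.64 and called. Against replicates 9 to 12 (0.04) and 13 to 16 (0.12) it was not. Of the 19 collagens, 3 passed the interaction with a higher effect and 1 with a lower one. Under spike-in scaling the collagen median in this run was 0.07 and none was called.

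Fn1, which encodes the adhesive matrix protein fibronectin, held 595, 649, 659.9 and 727 CPM without and 366, 346, 321 and 372 CPM with the drug. The treated libraries lay below all others of the series, whose lowest was 438 CPM, and the interaction was -0.55 ± 0.0824 (adjusted p = 2.46e-05), -0.76 without the 5 libraries, where it still passed. Run by run the effect was -0.90, -0.08, -0.32 and -0.65. Hspg2, the basement membrane proteoglycan perlecan, stood at 15.3, 15.7, 27.1 and 40.9 CPM and 7.88, 10.3, 11.2 and 10.7 CPM. Its untreated libraries were spread widely, replicates 3 and 4 being the high ones, and its interaction was -1.16 ± 0.27 (adjusted p = 0.011), lost without untreated 3 or 4 or treated 1 (-1.06 to -0.93).

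Genes of glycolysis and the response to low oxygen included 7 of 29 that fell and 1 that rose in this run, and 8 of 29 passed the interaction, all with a lower effect, where 0.747% of all genes did. Without the 5 libraries 2 of 30 passed, and against replicates 13 to 16 alone none of 29. The mean of log2(CPM + 1) over the list was 7.24 to 7.36 in the untreated libraries and 7.12, 7.20, 6.83 and 7.27 in treated replicates 1 to 4, so the groups overlapped and treated replicate 3 was the lowest. The medians by run were -0.34, 0.14, -0.07 and -0.17, and 30.9% of all genes had a lower effect in this run than in each other run. Pdk1, which keeps pyruvate out of the mitochondrion, stood at 87.1, 91.03, 108 and 113 CPM without and 49.4, 50.4, 51.9 and 50.2 CPM with the drug. The 4 treated libraries were nearly equal, below every other library of the series, and the interaction was -0.90 ± 0.15 (adjusted p = 0.000218). That call was lost without the 5 libraries, at -1.02.

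Pfkl, a subunit of phosphofructokinase, passed with and without those libraries (-0.49 ± 0.12, adjusted p = 0.0147), and so did Egln3, an oxygen-sensing prolyl hydroxylase (-0.90 ± 0.21, adjusted p = 0.0131). Without untreated 3 or 4 neither was called, nor Pfkl without treated 1 (-0.47 to -0.42 for Pfkl, -0.84 and -0.80 for Egln3). Egln3 was higher with azacitidine in replicates 5 to 16 by 0.39 ± 0.10 (adjusted p = 0.00778). The member that rose, Ndufa4l2, is one of the nearly silent genes described above. Between treated libraries 21 of 29 were lower in this run, a comparison that 22.8% of all genes passed in that direction.

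Cholesterol synthesis showed the same order of runs, with medians of -0.40, 0.07, 0.04 and -0.24. Hmgcs1, which makes HMG-CoA for the pathway, stood at 81.8, 94.8, 101 and 147 CPM without and 60.96, 55.3, 67.4 and 57.2 CPM with azacitidine. The groups did not overlap, and it was the 1 member of 22 called in this run, a call lost without untreated 3 or treated 1, 2 or 4 (-0.80 to -0.75). The interaction passed for 4 of 22, namely Hmgcs1 (-0.74 ± 0.14, adjusted p = 0.000967), Msmo1 (-0.48 ± 0.0938), Sc5d (-0.46 ± 0.12) and Cyp51 (-0.33 ± 0.0874), and for 1 of 22 without the 5 libraries, Sqle, which makes squalene epoxide and had not passed with all libraries (-0.48). Sc5d and Cyp51 lost their calls without any 1 of untreated 3 and 4 and treated 1 and 2 (-0.45 to -0.37 and -0.34 to -0.31), Sc5d also without treated 4 and Cyp51 without untreated 2. Of all genes, 0.747% passed the interaction with a lower effect. Against replicates 13 to 16 alone none of the 22 cholesterol genes passed, with a median difference of -0.12. Untreated cells were already lower in this run for 11 of the 22 (median -0.25), a comparison that 4.11% of all genes passed in that direction. Acat2, which condenses acetyl-CoA at the head of the same pathway, fell by -0.98 ± 0.14 against -0.16 ± 0.0579 elsewhere (-0.81 ± 0.13, adjusted p = 7.96e-05). Scd2, a fatty acid desaturase, held 478 ± 54.9 CPM without and 292 ± 6.19 CPM with the drug (SD, n = 4), its interaction being -0.66 ± 0.11 (adjusted p = 9.64e-05).

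H19, the imprinted non-coding RNA expressed from the maternal allele, went against its direction in the other runs. It stood at 17.3, 26.3, 28.4 and 36.2 CPM without and 15.6, 14.7, 17.5 and 16.99 CPM with azacitidine in replicates 1 to 4. The groups just touched, untreated replicate 1 lying within the treated range, and the decrease was not called. In replicates 5 to 16 it rose by 0.81 ± 0.11 (adjusted p = 6.61e-07) in a range of 20.1 to 54.9 CPM with the drug. The interaction was -1.50 ± 0.22 (adjusted p = 1.82e-05) and passed without the 5 libraries. Of 12 imprinted genes tested 3 passed, the third being Sgce at 0.48 ± 0.13, which was not called without the 5 libraries or without any 1 library but untreated 1 and treated 3 (0.34 to 0.51).

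Immediate early genes, which serum and growth factors switch on within minutes, passed the interaction with a lower effect in 5 of 20 cases, where 0.747% of all genes did, and in 1 of 20 without the 5 libraries. Egr2 stood at 8.31, 13.97, 11.7 and 16.3 CPM without and 3.94, 5.13, 7.76 and 6.80 CPM with the drug, and its interaction was -1.27 ± 0.32 (adjusted p = 0.0239). Its groups did not overlap, although the highest treated library came close to the lowest untreated one, and it was not called without the 5 libraries or without untreated 2, 3 or 4 or treated 1 or 2 (-1.27 to -1.10). Junb, a subunit of the factor AP-1, held 508, 574, 801 and 831 CPM and 449.8, 433, 490.3 and 436 CPM, the untreated libraries being split between replicates 1 and 2 and replicates 3 and 4 (-0.63 ± 0.14, adjusted p = 0.00674). Errfi1, an inhibitor of the EGF receptor chosen after its values were seen, had a change of -0.66 ± 0.15, called with all libraries and otherwise only without untreated 1 or treated 3 (-0.72 to -0.56 without the others), with an interaction of -0.73 ± 0.12 (adjusted p = 0.000145) that passed without the 5 libraries. Untreated cells of this run were higher for 9 of the 20 immediate early genes, a comparison that 6.81% of all genes passed in that direction.

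Among factors by which stroma supports blood-forming cells, 2 of 18 rose (1 of 18 without the 5 libraries), Gas6, a ligand of the TAM receptors (0.72 ± 0.10), and Sfrp2, a Wnt-binding protein (0.57 ± 0.0954), neither with a call on the difference. Kitl, the stem cell factor, did not pass in this run but rose by 0.39 ± 0.0674 in replicates 5 to 16 (adjusted p = 5.30e-05). Its interaction of -0.79 ± 0.18 (adjusted p = 0.0132) was lost without treated replicate 4 (-0.72) and without the 5 libraries. Its untreated libraries stood at 58.5, 71.1, 80.2 and 135 CPM, replicate 4 being the highest. Cxcl12, which holds stem cells in the niche, differed by 0.39 ± 0.0978 (adjusted p = 0.0248), also lost without them and without untreated 3 or 4 or treated 1 or 2 (0.35 to 0.38). The Cxcl12 difference was called against replicates 5 to 8 alone (0.81) and not against 9 to 12 (0.13) or 13 to 16 (0.23).

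Other lists held few or no calls. Dnmt1, the maintenance methyltransferase that azacitidine traps, stood at 42.6, 51.7, 47.5 and 45.5 CPM without and 35.7, 34.7, 44.1 and 33.7 CPM with the drug. These ranges overlapped, and the interaction was -0.35 ± 0.14 (adjusted p = 0.203). None of 18 genes of the methylation machinery was called in this run, nor any of 29 DNA replication or 29 mitosis genes. Of 25 targets of p53 4 rose, where 1.96% of all genes did, with a list median of 0.15 (0.04 without the 5 libraries). Cdkn1a, the cell cycle inhibitor p21, rose by 0.54 ± 0.0968 against 0.35 ± 0.0480 in replicates 5 to 16. Of 8 mitochondrially encoded genes 2 passed the interaction, where 1.97% of all genes did. Among them was mt-Nd4, a subunit of complex I, at 904, 951, 606 and 1048 CPM in the treated libraries. Treated replicate 3 was again the low one, its call was lost without untreated 3 or 4 or treated 1, 2 or 4 (0.39 to 0.48), and without the 5 libraries none of 9 passed.

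Markers of other cell types were checked in the 8 libraries. The summed level of 12 mesenchymal markers was 11364 to 12154 CPM without and 9642 to 10510 CPM with the drug. All 12 were seen in the treated libraries. The largest of them, Col3a1, had means of 4840 CPM without and 3248 CPM with the drug. Col1a1, Col1a2, Pdgfra, Pdgfrb and Prrx1 were also lower on average. Vim (2181 and 2677 CPM), Cxcl12, Eng, Thy1, Nt5e and Twist1 were higher. The leukocyte gene Ptprc had 0 UMIs without and 1 with azacitidine, the macrophage gene Adgre1 0 in both and the epithelial Epcam 0 and 1. Of the markers 4 leukocyte genes summed to 7.20 to 11.7 CPM without and 15.8 to 22.3 CPM with the drug, mostly Cd53, and 7 macrophage genes to 22.0 to 22.8 and 33.2 to 39.2 CPM. The 7 epithelial markers summed to 5.32 to 9.25 CPM and 105 to 124 CPM, mostly Krt8 and Krt18. The 5 erythroid markers summed to 1.17 to 4.32 CPM and 9.41 to 16.0 CPM, mostly Hba-a1 and Hba-a2, while Alas2 and Hbb-bs had 0 UMIs. The 5 adipocyte markers, mostly Lpl, summed to 363 to 431 CPM and 354 to 426 CPM. In replicates 5 to 16 those 5 spanned 194 to 254 CPM without and 148 to 266 CPM with the drug. In bulk RNA, fewer cells of a type and less RNA per cell cannot be told apart.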

How the data were processed

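RNA of EL08-1D2 cells was turned into cDNA with unique molecular identifiers and sequenced, per the labels' protocols. The values that the authors deposited are counts of UMIs for each gene in each library. STAR 2.4.0, bedtools 2.17.0 and the build mm10 are named, per the submitters' processing notes. How identifiers were collapsed, the annotation and the use of strand are not given in the sources used here, so genes that overlap on opposite strands and near-identical copies are uncertain.

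Of 21897 lines, 68 were spike-in RNAs with 0.106% of all UMIs. They were dropped and served only for 1 alternative scaling. The 21829 mouse genes were left, 21506 with a symbol in GENCODE M21. Groups came from the treatment label and runs of 4 from the replicate numbers. Counts were tested with edgeR 4.0.16 (quasi-likelihood, robust, TMM, default expression filter, two-sided, Benjamini-Hochberg threshold 0.05) in R 4.3.3: replicates 1 to 4 on their 8 libraries, replicates 5 to 16 on 24 with run as a term, and the interaction and the contrasts within a group on 32 with 1 mean per run and treatment. Library pairs of 1 group in this run differed by more than sampling noise (chi-square per degree of freedom 1.35 to 9.80), so none was merged. Totals ran from 818619 to 5039721 UMIs, and low genes are less precise in the shallow libraries. The test was also run on simulated counts, drawn independently for each library around 1 mean per gene apart from planted changes. They hold no differences between runs and no pattern shared by the 5 libraries. They cannot show how often such patterns give false calls.

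The members, gene lists and tests were chosen with earlier results of these data known. Named are the 12 genes with the largest change in each direction among calls whose mean reaches 5 UMIs in a group, for the effect and for the interaction, up to 4 called members of each list by p, and the DNA methyltransferases. The text gives those that bear on a group it describes. Ifit1, Isg15, Sqle, Cdsn, Errfi1, Gnai2, members named to spell out a count of 5 or fewer and cell type markers are outside that rule and were chosen after their values were seen. The alternatives were other scalings, filters and tools (DESeq2 1.42.0, limma 3.58.1), thinning, a replicate block, single libraries left out, and the 5 libraries left out; the 5 libraries alone and a term for them were added after the data were seen.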

Additional observations from a re-analysis of the deposited data

Results flagged for a closer look

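The effect of azacitidine differed between replicates 1 to 4 and the other runs for 206 genes (edgeR interaction, adjusted p under 0.05). In 8 named genes among them the estimated effect had 1 sign in replicates 1 to 4 and the opposite sign in each of the other 3 runs, where several estimates were smaller than their standard error. These differences, each called by that test, on the log2 scale were 1.75 for Mest, 0.90 for Cdsn and 0.48 for Sgce, and -1.50 for H19, -1.27 for Egr2, -0.90 for Egln3, -0.79 for Kitl and -0.63 for Junb. The effects in replicates 5 to 8, 9 to 12 and 13 to 16 were -1.84 ± 0.16, -0.07 ± 0.22 and -0.28 ± 0.20 (SE) for Mest, -0.65 ± 0.0963, -0.56 ± 0.10 and -0.54 ± 0.10 for Cdsn, and -0.10 ± 0.12, -0.08 ± 0.12 and -0.03 ± 0.12 for Sgce. They were 0.97 ± 0.21, 1.08 ± 0.19 and 0.48 ± 0.18 for H19, 0.01 ± 0.36, 0.21 ± 0.31 and 0.39 ± 0.30 for Egr2, and 0.53 ± 0.20, 0.58 ± 0.17 and 0.11 ± 0.17 for Egln3. For Kitl they were 0.25 ± 0.16, 0.40 ± 0.16 and 0.53 ± 0.16, and for Junb 0.08 ± 0.12, 0.01 ± 0.12 and 0.07 ± 0.12.

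Single libraries were flagged as apart from the other 3 of their group in 9 of 152 groups of 4 checked, where chance gives about 1 in 20. The 9 cases are thus near the number that chance gives, and some gaps were small in CPM, as for Casp1 and Irf7. Treated replicate 3 was high for Gpnmb (2371 CPM), Msmo1 (415 CPM) and the share of the 10 most abundant genes (8.77%). Treated replicate 2 was high for Apod (162 CPM), Isg15 (56.7 CPM) and Rsad2 (21.7 CPM), and treated replicate 1 for Casp1 (19.3 CPM). Untreated replicate 1 was low for Ifit3 (21.6 CPM) and untreated replicate 2 high for Irf7 (17.8 CPM).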

How the results depend on the processing

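Counts of called genes moved more than directions. In order, the numbers are for replicates 1 to 4 (267), the interaction (206) and replicates 5 to 16 (857) where given. They were 458 and 664 with no filter, 718 and 671 with a quality weight per library, 151, 129 and 455 after thinning, 164, 92 and 482 at an adjusted p under 0.01, and 366, 256 and 819 with DESeq2. Leaving out 1 library of the run in turn gave 174 to 415 calls in replicates 1 to 4 and 104 to 1110 for the interaction. Untreated replicate 1 gave the highest of both, and the interaction had 686 without treated replicate 3 and 104 to 130 without untreated 3 or 4 or treated 1, 2 or 4. Fitted among all 32 libraries, replicates 1 to 4 had 858 calls, and the 5 libraries that stood apart alone had 776. A term for them gave 848, and the interaction without them 54. The interaction had 368, 81 and 3 calls against replicates 5 to 8, 9 to 12 and 13 to 16 alone.

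Spike-in scaling left 15 interaction calls and 113 in replicates 5 to 16, all higher. It reversed Eno1 (0.0281), Grem1 (0.176), Mt1 (0.0338) and Pfkl (0.0658) in replicates 1 to 4, where it moved the median of all genes to 0.52. Between untreated libraries 1140 genes were called, 49 under spike-in scaling, 75 without untreated 1 and 2, and 206 with the term. Between treated libraries 4972 were called, 1017, 283 without treated 1, 2 and 4, and 630. Why these counts moved was not tested.

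Same-numbered libraries of the run correlated in their deviations at 0.868, 0.724, 0.199 and -0.319, so the numbers do not pair them, and 2 of 8 libraries correlated best with their own number. With a replicate block 231 genes were called in replicates 1 to 4, 313 in the interaction and 860 in replicates 5 to 16. Untreated replicate 4, with 818619 UMIs, limits what can be detected in genes of few counts.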
